A study of Mus musculus with 8 samples.

Results

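Heterogeneous nuclear ribonucleoproteins (hnRNPs) and a set of splicing regulators best known from muscle, brain and blood bind nascent transcripts and decide which exons enter the mRNA. The 37 genes described here were taken by symbol from the table of gene expression, as the hnRNP A/B, C, D, F/H, K, L, M, R and U genes, the poly(C)-binding proteins, the polypyrimidine tract binding proteins, the muscleblind and CELF proteins, and related regulators of the KH, ELAV, FET, Tra2 and RBM families. They are 37 of the 39017 genes in that table, each symbol had 1 entry, and for each the events in the authors' splicing tables were taken as well. RNA came from iGBs, splenic B cells of C57BL6/J mice that were activated on 40LB feeder cells, fibroblasts that carry CD40L and BAFF transgenes, in medium with IL-4 at 1 ng per mL, and that take on features of germinal center B cells. At day 4, elutriation was used to part the B cells from the feeder layer, and the samples can still hold some feeder RNA. The Prmt5-null group was Prmt5F/F Cγ1-cre, in which both alleles of Prmt5 are flanked by loxP sites, and the control group was Cγ1-cre with unmodified Prmt5. Cre driven from the Cγ1 locus acts only once B cells are activated, and the control cells carry the same Cre. The study's reporting summary gives 2 to 4 months as the age of its mice, of both sexes, without naming those of these cultures. Each group had 4 libraries, labelled PRMT5-10617, PRMT5-10618, PRMT5-10770 and PRMT5-10771 for Prmt5-null and CTRL-10650, followed by CTRL-10370, CTRL-10596 and CTRL-10597, for control, and values of libraries are given in this order throughout. The reads counted on genes were 47174851, 42752293, 43242655 and 46749607 in the Prmt5-null libraries and 41629143, 50366174, 48664766 and 36731721 in the control libraries, so depth was similar in both groups.

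hnRNPs coat transcripts as they emerge from the polymerase, and most of them contact RNA through RNA recognition motifs or KH domains with a preference for short motifs, such as UAG for hnRNP A1, runs of G for the F/H proteins, CA repeats for hnRNP L and pyrimidine tracts for the PTB proteins. Depending on where they sit relative to an exon, they block or promote its recognition, and several also control export, stability or translation of the mRNA. Many of these proteins carry arginine-glycine repeats that are substrates of arginine methyltransferases, and Prmt5, the enzyme deleted here, places symmetric dimethyl marks on hnRNP A1 and on the Sm proteins at the core of the spliceosome. In B cells, Ptbp1, hnRNP L and its relative hnRNP LL, and HuR take part in activation, in germinal center responses and in the switch to plasma cells.

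Prmt5 itself (ENSMUSG00000023110, chr14:54507187-54517525 of the GRCm38 build) was read first as a check of the labels. It had 1291, 1994, 1060.3 and 1808 normalized counts, which are reads divided by the size factor of the library, in the Prmt5-null libraries and 13087, 11084, 11657 and 11267 in the control libraries. The groups were far apart, at 1538 ± 436 against 11774 ± 908 (SD, n = 4 each). The log2 fold change, here and below Prmt5-null against control on the scale of log2(normalized count + 1), was -2.98 (standard error 0.17, adjusted p = 6.14e-06 from limma). Adjusted p-values are those of limma after Benjamini-Hochberg adjustment over the 16250 genes with a mean of at least 10 normalized counts.

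All 37 genes passed this filter, and none was rare, the lowest mean over the 8 libraries being 1017 normalized counts. A gene was called when its adjusted p was below 0.05 and its change at least 1.5-fold, which 6.48% of all genes tested met. Of the 37 genes, 1 (2.7%) met it, Taf15, which was lower in Prmt5-null iGBs. No member was called higher at 1.5-fold by limma, edgeR or DESeq2, while at an unadjusted p below 0.05 limma gave 10 members (27%, against 29.3% of all genes tested), 3 higher (8.11%, against 14.6%) and 7 lower (18.9%, against 14.7%). Without the fold threshold, 1 member rose, Hnrnph2 (2.7%, against 6.51% of all genes tested), and 2 members fell, Taf15 and Hnrnpr (5.41%, against 7.33% of all genes tested). The normalized counts of all 4 Prmt5-null libraries lay above those of all 4 control libraries for 1 member, Hnrnph2 (2.7%, against 9.67% of all genes), and below them for 3, Taf15, Hnrnpr and Pcbp1 (8.11%, against 10.2% of all genes). By the adjusted tests and by overlap, the shares of the members are below those of all genes tested, while the share lower at an unadjusted p is above. The fold changes of the members ran from -0.87 to 0.41 on the log2 scale, with a median of -0.05 against a median of 0.00 for all genes, and 24 of 37 (64.9%) were negative, as were 49.6% of all genes. The median size of the change without its sign was 0.14 for the members and 0.19 for all genes. In cultures such as these, fewer cells of a type and less RNA per cell cannot be told apart.

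**Figure D1:**
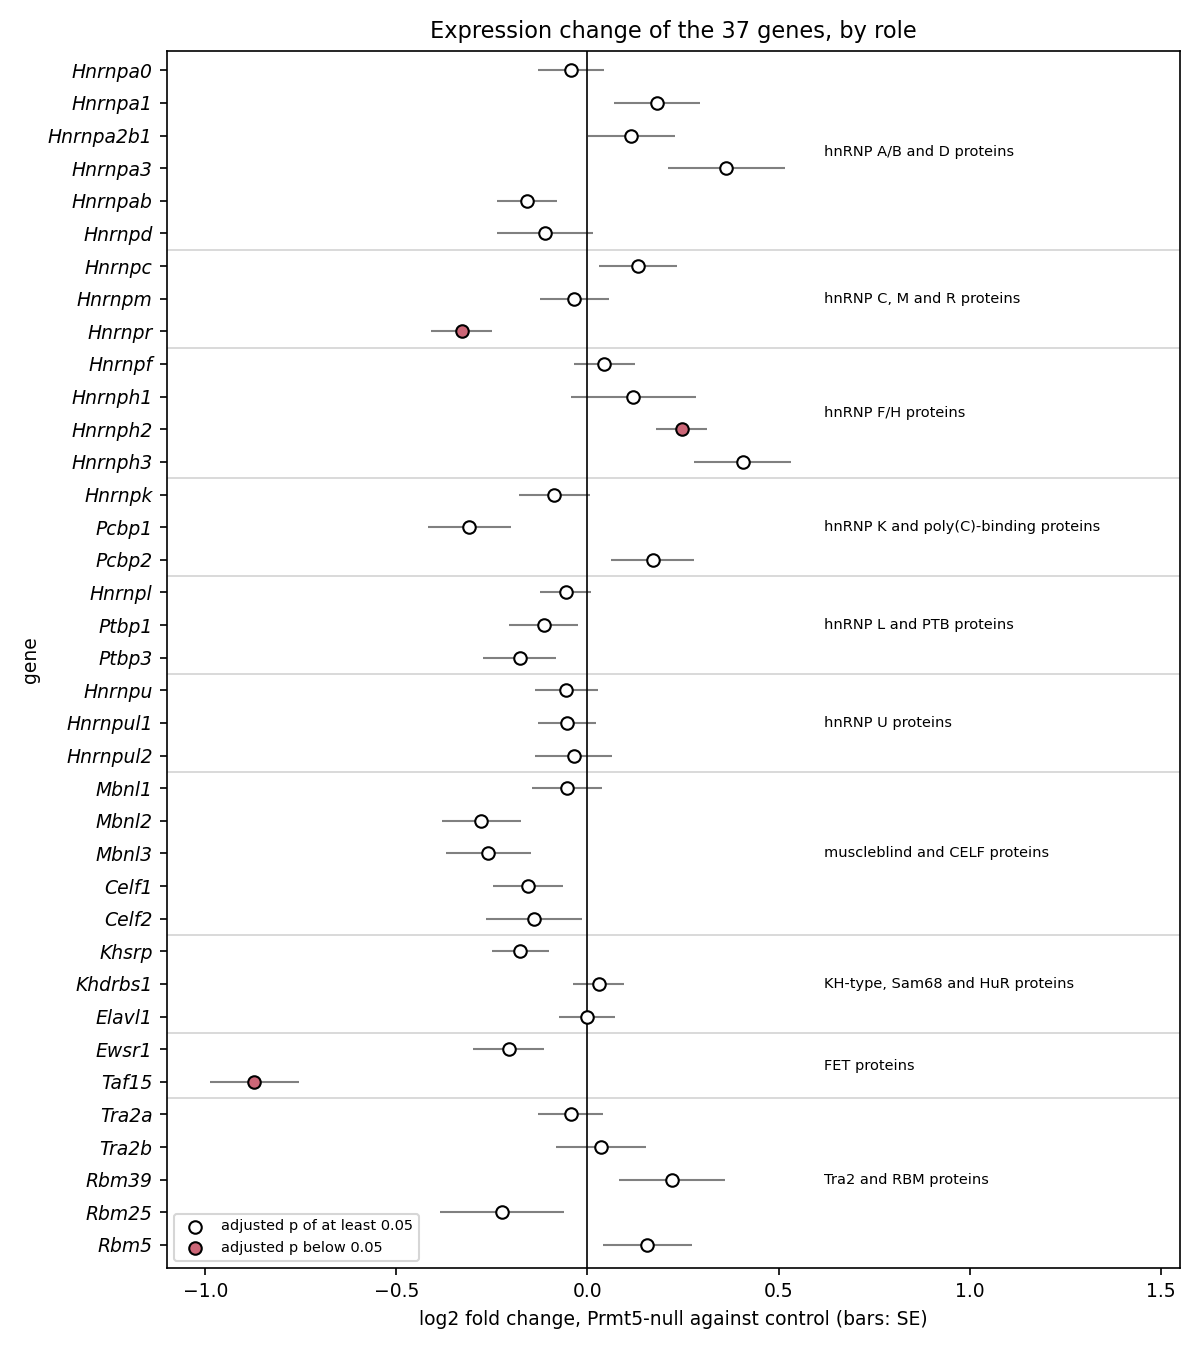
Log2 fold change of each of the 37 genes, Prmt5-null against control (horizontal axis), grouped by role, with bars for the standard error of limma and filled points for an adjusted p below 0.05. The fold changes run from -0.87 for Taf15 to 0.41 for Hnrnph3, and 3 points are filled.

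Splicing was read from the lists that the authors deposited from rMATS, a program that counts reads for and against a splicing choice. An inclusion level is the share, from 0 to 1, of the inclusion form among the inclusion and skipping forms of that event. It is estimated from the reads of these forms, corrected for their lengths, and is not a share of all transcripts of the gene. Each event has 4 values per genotype that do not name their libraries, so the levels are given without an SD. The header of these lists names no genotype either. The list numbered 1 was read as control and the list numbered 2 as Prmt5-null, and in this reading the 164-nucleotide Prmt5 exon at chr14:54513291-54513454 on the minus strand had levels of 1, 1, 0.995 and 0.989 in control and 0.153, 0.304, 0.027 and 0.298 in Prmt5-null. The deposited events are, for each gene and event type, the most significant one with a difference above 10% in genes with a mean above 50 normalized counts, counted on junction reads alone or with reads inside the segment as well, so they were selected for a difference and are described with no test. The levels printed here include the reads inside the segment, and by them 3 of the events of the members, in Celf1 (2) and Rbm39, differ by less than 10%. A deposited event was listed for 16 of the 37 members (43.2%), against 11.4% of the 13300 genes with a mean above 50 and 13.8% of the 7094 genes that were at least as abundant as the least abundant member. These shares depend on depth and on the number of annotated transcripts of a gene, which were not matched. The members held 24 events, 12 skipped exons, 5 retained introns, 4 pairs of mutually exclusive exons, 2 alternative 5′ splice sites and 1 alternative 3′ splice site. Inclusion was higher in the Prmt5-null list in 13 and lower in 11. Among all genes with an event, 67.4% of skipped exons were less included in the Prmt5-null list and 86.9% of retained introns were more included, while the members had 6 of 12 skipped exons lower and 4 of 5 retained introns higher. In 18 of the 24 events, 12 higher and 6 lower, the 4 Prmt5-null values lay outside the range of the 4 control values, and in the other 6 the ranges overlapped. Of all 1918 deposited events, 50.8% were apart, 25.7% with higher and 25.1% with lower levels, and depth was not matched in this comparison. None of the 16 members with an event passed the expression test by limma, edgeR or DESeq2 at an adjusted p below 0.05, and 1 of them had an unadjusted p below 0.05 by limma. Of all genes tested by limma, 6.51% were higher and 7.33% lower at an adjusted p below 0.05, and 29.3% had an unadjusted p below 0.05.

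**Figure D2:**
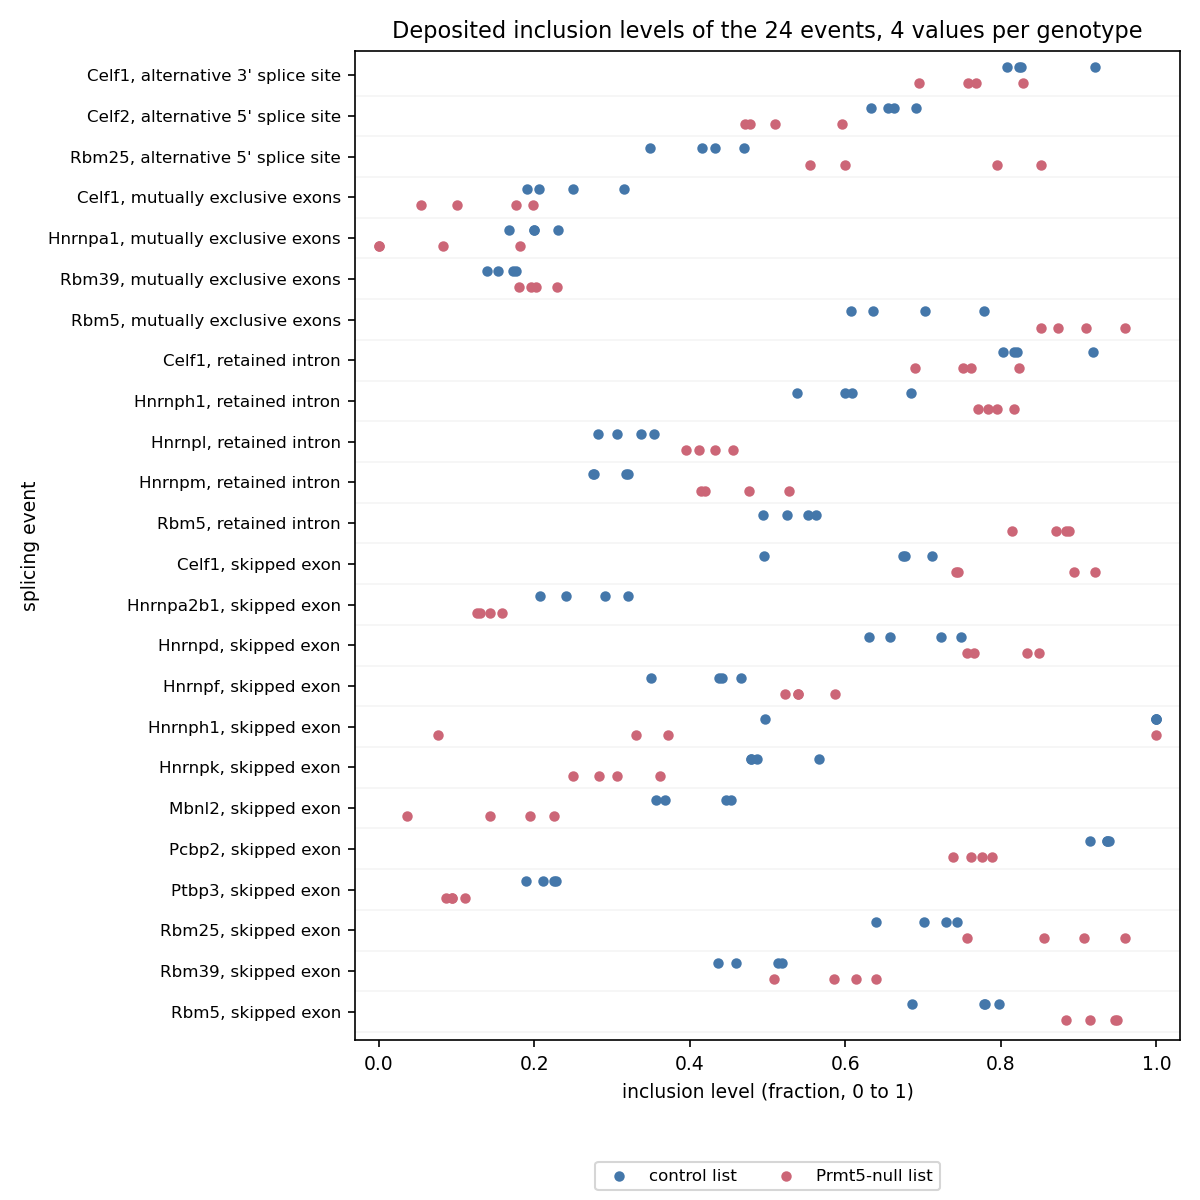
Deposited inclusion levels (horizontal axis, fraction from 0 to 1) of the 24 events in 16 members, with 4 points for the control list above and 4 for the Prmt5-null list below for each event. The points of the genotypes are apart in 18 events and overlap in 6.

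The hnRNP A/B and D proteins pair RNA recognition motifs with a glycine-rich tail, and none of the 6 genes passed the test, with fold changes from -0.16 to 0.36 on the log2 scale and 3 of 6 negative. Per kilobase of exon, which allows levels to be compared between genes, Hnrnpab was the most abundant of all 37 members at 12777 ± 715 normalized counts in control (SD, n = 4). It encodes a relative of hnRNP D that binds both RNA and single-stranded DNA, and its lowest control library, at 12021, was above the highest of Hnrnpf, the next gene in order, at 5739.6. With the longest protein-coding transcript as the length, a measure added after the values were known, Hnrnpab ranked 2 of 37. Hnrnpab had 31854 ± 1709 normalized counts in Prmt5-null and 35544 ± 1989 in control, ranges that overlapped. Hnrnpa0, which binds AU-rich elements, had 9273 ± 296 and 9598 ± 1035, also overlapping. Hnrnpa3, a close relative of hnRNP A1 and A2, had 4323, 6421, 3805 and 4906 normalized counts in Prmt5-null and 3145, 3337, 4294 and 4202 in control. Library PRMT5-10618 was the highest of the Prmt5-null libraries and PRMT5-10770 the lowest, the groups overlapped, and the fold change of 0.36 did not pass (standard error 0.15, adjusted p = 0.14 from limma). It depended on single libraries, at 0.22 without library PRMT5-10618 and 0.47 without library PRMT5-10770, where it passed (adjusted p = 0.0456). It also passed in the most favorable of 18 placements of the libraries in the 2 experiments of the study, fitted as a block (0.0132), but not in the least favorable (0.182). Both Hnrnpa1 and Hnrnpa3 have processed copies elsewhere in the genome, and since the authors counted uniquely mapped reads, reads shared with such copies are not in these values.

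Hnrnpa2b1 encodes hnRNP A2 and B1, which act in splicing and in the transport and sorting of RNAs, and had 31788 ± 3449 normalized counts in Prmt5-null and 29454 ± 4025 in control. A 136-nucleotide exon of its 3′ UTR, at chr6:51461920-51462055 on the minus strand, had inclusion levels of 0.208, 0.32, 0.291 and 0.241 in control and 0.126, 0.158, 0.13 and 0.143 in Prmt5-null. All Prmt5-null values lay below all control values, over 870 reads for inclusion and 1122 for skipping in control and 603 and 1781 in Prmt5-null. Of the annotated transcripts with this exon, 1 is protein-coding and 2 are marked for nonsense-mediated decay, the pathway that removes mRNAs with an early stop codon. Hnrnpd encodes AUF1, whose isoforms bind AU-rich elements and mostly hasten decay of the mRNA, and had 2719 ± 306 normalized counts in Prmt5-null and 2958 ± 549 in control. Its 57-nucleotide exon at chr5:99976534-99976590 on the minus strand, a coding exon whose use distinguishes the AUF1 isoforms, had inclusion levels of 0.658, 0.723, 0.749 and 0.63 in control and 0.849, 0.756, 0.833 and 0.765 in Prmt5-null. Every Prmt5-null value was above every control value, the length is a multiple of 3, and the means of the 4 values were 0.690 and 0.801. Hnrnpa1, the best studied repressor of exon inclusion in the family, had 7242 ± 1015 normalized counts in Prmt5-null and 6382 ± 813 in control. Its listed event is a 93-nucleotide coding exon at chr15:103242206-103242298 on the plus strand, paired with another as mutually exclusive, with levels of 0.2, 0.2, 0.167 and 0.231 in control and 0.083, 0, 0.182 and 0 in Prmt5-null. Only 5 to 15 reads per library lay behind these values, the ranges overlapped, and no annotated transcript holds either form, so the event is thinly supported.

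Of the hnRNP C, M and R genes, Hnrnpr fell in Prmt5-null iGBs. Hnrnpr (ENSMUSG00000066037, chr4:136310942-136359447) encodes a protein close to Syncrip that is found on mRNAs in the nucleus and the cytoplasm. It had 4669, 5278, 4734 and 4767 normalized counts in the Prmt5-null libraries and 5489.8, 6012, 6291 and 6674 in the control libraries. The highest Prmt5-null library, PRMT5-10618, was below the lowest control library, CTRL-10650, so the groups did not overlap, although that gap was small. The fold change was -0.33 (standard error 0.08, adjusted p = 0.017 from limma), under the 1.5-fold threshold. The call was lost when library PRMT5-10617 (adjusted p = 0.0512), PRMT5-10771 (0.057), CTRL-10596 (0.0537) or CTRL-10597 (0.0553) was left out, with adjusted p-values from 0.00232 to 0.057 over 19 alternatives and the same direction in all of them. The non-coding gene Gm27022 overlaps it on the opposite strand by 715 exonic bases and was at 0 in every library. Hnrnpc, which binds uridine tracts of nascent transcripts, had 14295 ± 2269 normalized counts in Prmt5-null and 12945 ± 652 in control, with overlapping ranges. Hnrnpm, a regulator of alternative exons that binds GU-rich sequences, had 9252 ± 869.7 and 9469.8 ± 840.0. March2 shares 1169 exonic bases with Hnrnpm on the same strand and had a mean of 1162 normalized counts, so reads of the shared bases cannot be assigned to either gene.

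Hnrnpm also carried a retained intron, one whose sequence stays in the mRNA. The 117-nucleotide intron at chr17:33666530-33666646 on the minus strand had inclusion levels of 0.277, 0.275, 0.318 and 0.32 in control and 0.415, 0.476, 0.42 and 0.527 in Prmt5-null. Every Prmt5-null value was above every control value, over 1032 reads for retention and 1252 for splicing in control and 1501 and 906 in Prmt5-null. The length is a multiple of 3 and the segment is coding sequence in 2 annotated protein-coding transcripts, while 2 others splice it out, so this intron is also an exonic segment of an annotated protein isoform.

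**Figure D3:**
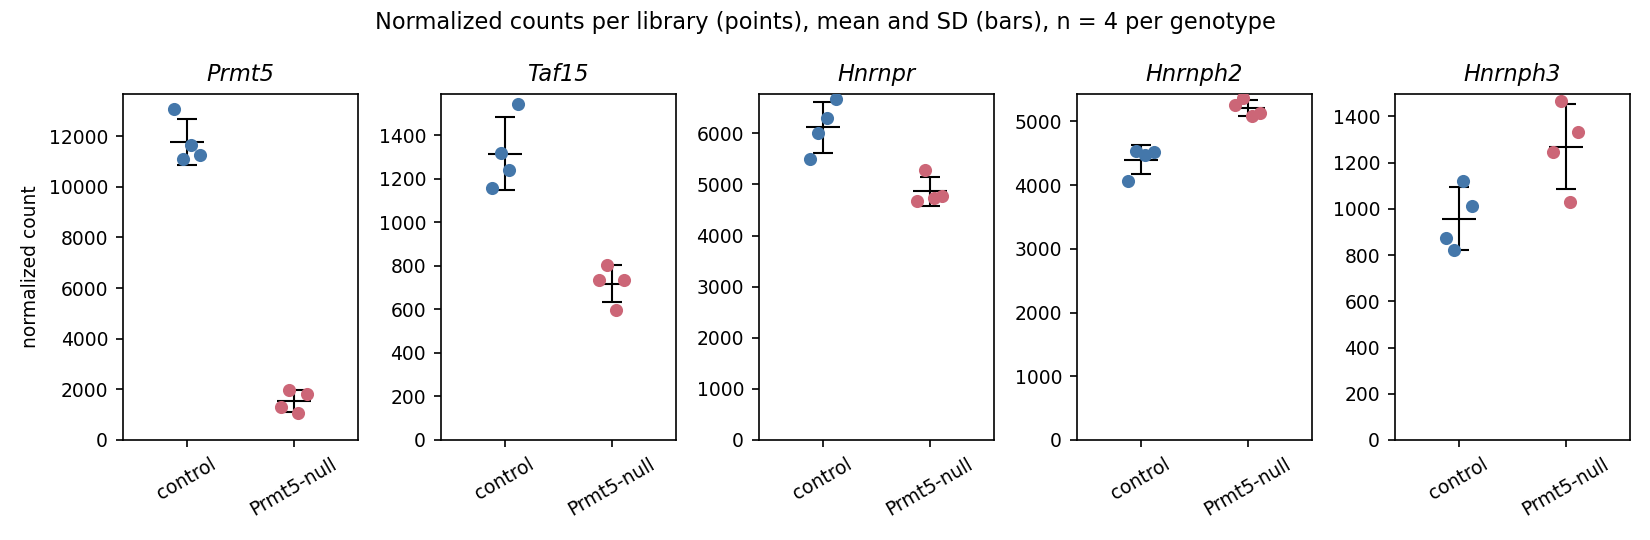
Normalized counts per library (points; vertical axis, from 0) of Prmt5, Taf15, Hnrnpr, Hnrnph2 and Hnrnph3 in 4 control and 4 Prmt5-null libraries, with the mean and SD as bars. The groups are apart for Prmt5, Taf15, Hnrnpr and Hnrnph2 and overlap for Hnrnph3.

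The hnRNP F/H proteins bind runs of G near splice sites, and all 4 genes had positive fold changes, from 0.04 to 0.41 on the log2 scale, of which 1 passed the test. Hnrnph2 (ENSMUSG00000045427, chrX:134601179-134607060), an X-linked relative of Hnrnph1, had 5252, 5372, 5082 and 5137 normalized counts in Prmt5-null and 4061, 4537, 4472 and 4516 in control. The Prmt5-null libraries were all above the control libraries, of which CTRL-10650 was the lowest by a wide margin. Its fold change was 0.25 (standard error 0.07, adjusted p = 0.0322 from limma). The call was lost with no filter on low values (0.0557), without letting the variance follow the expression level, as the trend in limma does (0.0633), and on leaving out any library but PRMT5-10770, with adjusted p-values of 0.0727 without PRMT5-10617, 0.0651 without PRMT5-10618, 0.078 without PRMT5-10771, 0.0894 without CTRL-10650, 0.0529 without CTRL-10370, 0.0654 without CTRL-10596 and 0.0582 without CTRL-10597. It was also lost in the least favorable block (0.0604). The direction was the same in all 19 alternatives, whose adjusted p-values ran from 0.00441 to 0.0894. Hnrnph3, the shortest protein of the group, had 1247, 1467, 1030.0 and 1332 normalized counts in Prmt5-null and 874, 822, 1122 and 1011 in control. Library PRMT5-10770 was low among the Prmt5-null libraries and lay within the control range, so the groups overlapped. Its fold change of 0.41 missed the threshold (standard error 0.13, adjusted p = 0.0546 from limma), and passed after quantile normalization (0.0399), by DESeq2 (0.0225), without library PRMT5-10770 (0.0137), without library CTRL-10596 (0.0426) and in the most favorable block (0.0081), with adjusted p-values up to 0.136 over the alternatives. Rufy2 overlaps Hnrnph3 on the opposite strand by 115 exonic bases at a mean of 1086 normalized counts, and since the strand setting of the counting is not given, reads of those bases cannot be told apart.

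Hnrnpf had 16865 ± 1205 normalized counts in Prmt5-null and 16354 ± 1107 in control and was, per kilobase, next to Hnrnpab at 5367 ± 363 in control, a place it did not keep by the longest protein-coding transcript, where it ranked 7 of 37. Its 60-nucleotide 5′ UTR exon at chr6:117907149-117907208 on the plus strand had inclusion levels of 0.438, 0.35, 0.466 and 0.442 in control and 0.539, 0.587, 0.539 and 0.523 in Prmt5-null. All Prmt5-null values were higher, with 766 reads for inclusion and 717 for skipping in control and 1044 and 587 in Prmt5-null. Hnrnph1, the most studied of the group, had 23085 ± 5582 normalized counts in Prmt5-null and 20999 ± 3429 in control, a spread that overlapped. A 2572-nucleotide intron of Hnrnph1 at chr11:50379965-50382536 on the plus strand was retained at levels of 0.608, 0.6, 0.538 and 0.685 in control and 0.795, 0.784, 0.77 and 0.817 in Prmt5-null. All Prmt5-null values were above the control values, over 11384 and 17471 reads for retention and 344 and 210 for splicing in control and Prmt5-null. The annotated transcripts that keep this intron, 2 of them, have no reading frame. The 1 annotated transcript that splices it out is not protein-coding either, so neither form is that of an annotated coding mRNA. A 127-nucleotide 5′ UTR exon of Hnrnph1 at chr11:50377314-50377440 on the plus strand had levels of 0.497, 1, 1 and 1 in control and 0.076, 0.372, 1 and 0.331 in Prmt5-null. With 2 to 14 reads per library these ranges overlapped, and the event drops out when 20 reads are asked of each library.

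hnRNP K and the poly(C)-binding proteins hold KH domains and bind stretches of C in splicing, translation and mRNA stability, and none of the 3 genes passed the test. Pcbp1, a gene without introns that arose by retrotransposition of Pcbp2, had 2271, 1768, 2174 and 2139 normalized counts in Prmt5-null and 3067, 2347, 2322 and 2634 in control. Every Prmt5-null library was below every control library, yet the fold change of -0.31 did not pass (standard error 0.11, adjusted p = 0.08 from limma). It passed in the most favorable block (adjusted p = 0.0367). The antisense gene 1600020E01Rik shares 75 exonic bases with Pcbp1 and had a mean of 643 normalized counts, and reads of those bases cannot be told apart without the strand setting. Pcbp2 had 5331 ± 155 normalized counts in Prmt5-null and 4789.6 ± 864 in control. Its 39-nucleotide coding exon at chr15:102488776-102488814 on the plus strand was included at 0.937, 0.939, 0.915 and 0.936 in control and 0.762, 0.738, 0.776 and 0.789 in Prmt5-null. All Prmt5-null values lay below all control values, over 1318 reads for inclusion and 72 for skipping in control and 1221 and 282 in Prmt5-null. The length is a multiple of 3, and 8 annotated protein-coding transcripts hold the exon while 4 skip it. Hnrnpk had 23854 ± 1787 normalized counts in Prmt5-null and 25372 ± 2580.4 in control. Its 72-nucleotide coding exon at chr13:58396188-58396259 on the minus strand had inclusion levels of 0.566, 0.479, 0.479 and 0.487 in control and 0.306, 0.362, 0.283 and 0.25 in Prmt5-null, again with no overlap. The means of the 4 values were 0.503 and 0.300, over 328 reads for inclusion and 210 for skipping in control and 320 and 473 in Prmt5-null, and the length keeps the reading frame.

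hnRNP L and the polypyrimidine tract binding proteins are related in their RNA recognition motifs and mostly repress exons, and all 3 genes had negative fold changes, from -0.18 to -0.06 on the log2 scale, none of which passed. The unadjusted p was below 0.05 for none of them by limma, and edgeR and DESeq2 called none. Ptbp1, which acts in germinal center B cells and represses the neuronal exon of its paralog Ptbp2, had 18056 ± 1935 normalized counts in Prmt5-null and 19496 ± 1227 in control, with overlapping ranges. Hnrnpl, which binds CA repeats and represses the variable exons of Cd45, had 13386 ± 512 and 13928 ± 506. A 111-nucleotide segment of Hnrnpl at chr7:28818533-28818643 on the plus strand was retained at levels of 0.282, 0.306, 0.354 and 0.337 in control and 0.395, 0.433, 0.412 and 0.455 in Prmt5-null. All Prmt5-null values were above the control values, with 1954 reads for retention and 2194 for splicing in control and 2681 and 1930 in Prmt5-null. The segment is coding in 1 annotated transcript and is spliced out in 7. Ptbp3, the paralog typical of blood cells, had 21549 ± 2559 normalized counts in Prmt5-null and 24284 ± 1831 in control. Its 34-nucleotide coding exon at chr4:59546149-59546182 on the minus strand, whose length shifts the reading frame, was included at 0.211, 0.225, 0.228 and 0.189 in control and 0.087, 0.094, 0.094 and 0.111 in Prmt5-null. Every Prmt5-null value lay below every control value, over 690 reads for inclusion and 1973 for skipping in control and 295 and 2170 in Prmt5-null. The 3 annotated transcripts that skip this exon are protein-coding. Of those that hold it, 2 are protein-coding and 1 is marked for nonsense-mediated decay.

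The hnRNP U proteins differ from the rest in binding both DNA of scaffold attachment regions and RNA, and the 3 genes were among the least altered. Hnrnpu had 32269 ± 1878 normalized counts in Prmt5-null and 33544 ± 2364 in control, Hnrnpul1 16658 ± 1123 and 17258 ± 818, and Hnrnpul2 4462 ± 496 and 4569.7 ± 478. The groups overlapped for each, the fold changes ran from -0.06 to -0.04 on the log2 scale, and no event was listed for them. None passed by limma, edgeR or DESeq2, and none had an unadjusted p below 0.05.

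The muscleblind proteins bind YGCY motifs and the CELF proteins GU-rich motifs, and the families oppose each other on many exons during muscle and heart development. All 5 genes had negative fold changes, from -0.28 to -0.05 on the log2 scale, but none passed by limma, edgeR or DESeq2, with 2 at an unadjusted p below 0.05. Per kilobase Mbnl2 was the least abundant of the 37 members, at 133 ± 14.2 normalized counts in control, followed by Mbnl3 at 213 ± 32.4, and by the longest protein-coding transcript Mbnl2 ranked 36 and Mbnl3 35. Mbnl2 had 1228, 1459, 1164 and 1415 normalized counts in Prmt5-null and 1834, 1548, 1431 and 1569 in control. The groups overlapped, and the fold change was -0.28 (standard error 0.10, adjusted p = 0.0975 from limma, or 0.0388 in the most favorable block). Its 54-nucleotide coding exon at chr14:120395712-120395765 on the plus strand, which affects how much of the protein is in the nucleus, was included at 0.368, 0.356, 0.453 and 0.446 in control and 0.195, 0.036, 0.225 and 0.143 in Prmt5-null. This is a drop of the mean from 0.406 to 0.150 with no overlap, over 171 reads for inclusion and 179 for skipping in control and 52 and 212 in Prmt5-null. The lowest Prmt5-null value, 0.036, rests on 3 reads for inclusion and 56 for skipping. Muscleblind proteins repress an exon of this kind in their own transcripts. Mbnl1 had 19541 ± 2426 normalized counts in Prmt5-null and 20182 ± 982 in control, and the X-linked Mbnl3 had 1545 ± 139.6 and 1859 ± 284, with a fold change of -0.26 (adjusted p = 0.146 from limma) that was -0.17 without library CTRL-10597.

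Celf2 had 6390.3 ± 1340.5 normalized counts in Prmt5-null and 6933 ± 285 in control. At an alternative 5′ splice site of Celf2, the 12-nucleotide coding segment at chr2:6560659-6560670 on the minus strand was included at 0.662, 0.691, 0.633 and 0.655 in control and 0.596, 0.477, 0.471 and 0.51 in Prmt5-null, through the use of the site farther downstream. All Prmt5-null values were below the control values, over 668 reads for inclusion and 314 against it in control and 480 and 416 in Prmt5-null, and the 12 nucleotides keep the reading frame. Celf1, which promotes decay of GU-rich mRNAs besides its role in splicing, had 6553 ± 579.7 normalized counts in Prmt5-null and 7305 ± 734 in control and carried 4 events. A 152-nucleotide exon at chr2:90987665-90987816 on the plus strand, held by 1 annotated transcript with no reading frame, was included at 0.712, 0.496, 0.674 and 0.677 in control and 0.745, 0.921, 0.894 and 0.742 in Prmt5-null. These lists did not overlap, but with 40 reads for skipping in control and 26 in Prmt5-null the levels are coarse. A 3163-nucleotide intron in the 3′ UTR at chr2:91013403-91016565 on the plus strand was retained at 0.817, 0.919, 0.821 and 0.803 in control and 0.689, 0.823, 0.762 and 0.751 in Prmt5-null. An alternative 3′ splice site at chr2:91013491-91016565 on the plus strand had 0.823, 0.921, 0.826 and 0.808 and 0.695, 0.828, 0.768 and 0.758, and shares its 86 and 129 opposing reads with the intron, so it is not a separate observation. The control and Prmt5-null values overlapped for this pair, as they did for a 53-nucleotide 5′ UTR exon of a mutually exclusive pair at chr2:90954289-90954341 on the plus strand, with 0.206, 0.315, 0.25 and 0.191 in control and 0.177, 0.054, 0.101 and 0.199 in Prmt5-null.

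Among the KH-type, Sam68 and HuR proteins, none of 3 passed and no event was listed. Khsrp, which speeds the decay of mRNAs with AU-rich elements, had 12193, 11239, 10377 and 11633 normalized counts in Prmt5-null and 12704, 12150.1, 12719 and 13698 in control. The ranges overlapped and the fold change was -0.18 (standard error 0.07, adjusted p = 0.144 from limma). Elavl1, which encodes HuR and stabilises mRNAs with the same elements, had 5549 ± 79.5 normalized counts in Prmt5-null and 5569 ± 452 in control. Khdrbs1, which encodes Sam68, a signal-dependent splicing regulator, had 10852 ± 92.8 and 10644 ± 496. Both differed by less than the spread of the control libraries.

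Taf15, a member of the FET family with Ewsr1, whose proteins bind RNA and join transcription by RNA polymerase II to splicing, was the member that fell most. Taf15 (ENSMUSG00000020680, chr11:83473086-83506743) had 737, 802, 598 and 735 normalized counts in the Prmt5-null libraries and 1156, 1319, 1241 and 1544 in the control libraries. The highest Prmt5-null library lay well below the lowest control library, with means of 718 ± 85.8 and 1315 ± 167 (SD, n = 4 each). The fold change was -0.87 (standard error 0.12, adjusted p = 0.000624 from limma), past the 1.5-fold threshold. It passed in all 19 alternatives, with adjusted p-values up to 0.0057, and lay between -0.93 and -0.79 when each library was left out in turn. At 2-fold it would not be called. No annotated gene overlaps its exons, and no splicing event was listed for it. Ewsr1, the abundant relative, had 15397, 17828, 13819 and 14893 normalized counts in Prmt5-null and 15994, 17311, 18955 and 19079 in control. Those groups overlapped, and the fold change was -0.21 (standard error 0.09, adjusted p = 0.166 from limma). Whether the change of Taf15 differs from that of Ewsr1 was not tested.

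Tra2a and Tra2b activate exons through GAA-rich enhancers, and the 3 RBM proteins here act at early steps of spliceosome assembly, Rbm39 as a relative of the U2AF large subunit, Rbm25 with the U1 particle and Rbm5 at the 3′ splice site, where it controls exon choice in Fas. None of these 5 genes passed the expression test by limma, edgeR or DESeq2 or had an unadjusted p below 0.05, and 3 of 5 fold changes were positive, from -0.22 to 0.22 on the log2 scale. Tra2a had 5903 ± 618 normalized counts in Prmt5-null and 6067 ± 327 in control, and Tra2b 9013 ± 1645 and 8722 ± 826, with no event listed for either. Rbm39 had 29734 ± 6036 normalized counts in Prmt5-null and 25274 ± 3230.0 in control. Its 274-nucleotide exon at chr2:156177633-156177906 on the minus strand is annotated only in a transcript marked for nonsense-mediated decay, and was included at 0.436, 0.46, 0.518 and 0.514 in control and 0.508, 0.64, 0.585 and 0.614 in Prmt5-null. The 4 annotated transcripts that skip this exon are not protein-coding either, 3 being marked for nonsense-mediated decay and 1 as a retained intron. The lowest Prmt5-null value lay among the control values, while by junction reads alone the lists were apart, with means of 0.0935 and 0.202. A 73-nucleotide exon of a mutually exclusive pair in Rbm39 at chr2:156178880-156178952 on the minus strand had 0.154, 0.173, 0.176 and 0.139 in control and 0.229, 0.202, 0.196 and 0.181 in Prmt5-null. The Prmt5-null values were higher without overlap, by a mean of 0.0415, but by junction reads alone the levels were 0.874, 0.824, 0.826 and 0.875 in control and 0.99, 0.947, 0.954 and 0.959 in Prmt5-null, so the counts of reads agree in direction and not in level. No annotated transcript holds either form of this pair.

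Rbm25 had 10184 ± 2469.8 normalized counts in Prmt5-null and 11765 ± 2053 in control. Its 184-nucleotide segment at an alternative 5′ splice site of the 5′ UTR, at chr12:83639192-83639375 on the plus strand, was included at 0.432, 0.416, 0.349 and 0.47 in control and 0.6, 0.795, 0.555 and 0.851 in Prmt5-null. That is a mean difference of 0.283 without overlap, over 168 reads for inclusion and 95 against it in control and 264 and 41 in Prmt5-null. A 118-nucleotide exon of Rbm25 at chr12:83642402-83642519 on the plus strand, which holds part of the coding sequence, had 0.743, 0.701, 0.639 and 0.729 in control and 0.855, 0.959, 0.907 and 0.757 in Prmt5-null. These lists did not overlap, and 2 protein-coding transcripts skip the exon. Rbm5 had 10806 ± 1646 normalized counts in Prmt5-null and 9661 ± 1130.0 in control and carried 3 events, all with higher inclusion in the Prmt5-null list. Its 74-nucleotide coding exon at chr9:107759776-107759849 on the minus strand was included at 0.779, 0.798, 0.778 and 0.686 in control and 0.947, 0.914, 0.949 and 0.884 in Prmt5-null. All Prmt5-null values were above the control values, with 168 reads for skipping in control and 50 in Prmt5-null, and the transcripts annotated without this exon, 2 of them, are marked for nonsense-mediated decay. The region that surrounds it, 3329 nucleotides at chr9:107756993-107760321 on the minus strand, was listed as a retained intron at 0.525, 0.562, 0.552 and 0.494 in control and 0.871, 0.887, 0.884 and 0.814 in Prmt5-null. It is measured against the same skipping reads as the exon, so the events are not independent, and its reads for inclusion, 5380 in control and 8667 in Prmt5-null, include those of the exon. A 152-nucleotide exon of a mutually exclusive pair at chr9:107765495-107765646 on the minus strand had 0.635, 0.778, 0.702 and 0.607 in control and 0.909, 0.874, 0.959 and 0.851 in Prmt5-null, but no annotated transcript holds either form, and by junction reads alone its levels were 0 in all 4 control values and 0.182, 0, 0 and 0.1 in Prmt5-null.

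The 6 skipped exons that lie in coding sequence are printed so that their length and their ends can be compared, 5′ to 3′ on the strand of the gene from transcripts of the GRCm38 build, at the positions given with each gene. Capitals mark the last 3 bases, which pair with U1 snRNA across the 5′ splice site and most often end in AG. Those of Ptbp3 and Rbm5 end in AG, and those of Pcbp2, Mbnl2, Hnrnpk and Hnrnpd do not. Inclusion was lower in the Prmt5-null list for Pcbp2, Ptbp3, Mbnl2 and Hnrnpk and higher for Rbm5 and Hnrnpd.
Pcbp2: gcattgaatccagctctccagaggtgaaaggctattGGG
Ptbp3: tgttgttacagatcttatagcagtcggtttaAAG
Mbnl2: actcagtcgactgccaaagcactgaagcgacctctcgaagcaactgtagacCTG
Hnrnpk: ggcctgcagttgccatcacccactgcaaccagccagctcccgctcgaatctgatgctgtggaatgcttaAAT
Rbm5: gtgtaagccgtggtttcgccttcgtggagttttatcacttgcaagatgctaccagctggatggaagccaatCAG
Hnrnpd: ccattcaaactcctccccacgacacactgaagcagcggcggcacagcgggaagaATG

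The retained coding introns of Hnrnpm and Hnrnpl and the Celf2 segment are printed for their 5′ splice sites, also 5′ to 3′ on the strand of the gene in GRCm38. Capitals mark the first 6 bases, the intronic side of the 5′ splice site when the segment is spliced out, and in the introns also the last 3 bases at the 3′ splice site. Against GTAAGT, the intronic sequence that pairs fully with U1 snRNA, 3 of 6 bases match in Hnrnpm, 4 of 6 in Hnrnpl and 3 of 6 in Celf2. A match is a description of the sequence and not a measure of its use.
Hnrnpm: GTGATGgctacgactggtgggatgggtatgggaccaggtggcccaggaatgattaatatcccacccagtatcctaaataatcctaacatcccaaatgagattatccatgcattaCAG
Hnrnpl: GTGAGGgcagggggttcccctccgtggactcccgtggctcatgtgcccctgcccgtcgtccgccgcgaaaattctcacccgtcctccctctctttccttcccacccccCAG
Celf2: GTACCAtaaaca

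Other splicing regulators were taken as a list of 52 genes, of which 37 were tested. Of these, 6 rose (16.2%, against 6.51% of all genes tested) and 2 fell (5.41%, against 7.33%) at an adjusted p below 0.05, and 2 were called higher and 1 lower at 1.5-fold (8.11% together, against 6.48%), with a median fold change of -0.02 on the log2 scale against 0.00 for all genes. Ddx17, an RNA helicase that works with splicing factors, had 6881, 7746, 7245 and 7770.4 normalized counts in Prmt5-null and 13310.4, 13097, 14945 and 12564 in control. The groups were far apart, and the fold change was -0.86 (standard error 0.08, adjusted p = 7.55e-05 from limma). Rbfox2, which binds UGCAUG beside alternative exons, rose by 0.83 (adjusted p = 0.0142), from 134 ± 24.6 normalized counts in control to 242 ± 53.8 in Prmt5-null. Celf5, a CELF gene typical of brain, rose by 1.145 (adjusted p = 0.0219) at a low level, from 26.5 ± 4.50 to 62.7 ± 25.5 normalized counts, and the call was lost without library PRMT5-10617 (0.0575), CTRL-10650 (0.0586) or CTRL-10370 (0.0517). Hnrnpll, which represses Cd45 exons in plasma cells and memory T cells, rose by 0.50 (adjusted p = 0.0421). Ptbp2, the neuronal paralog of Ptbp1, rose by 0.50 (adjusted p = 0.0411). For Hnrnpll the call was lost without the trend (0.08) and without library PRMT5-10617 (0.0967), PRMT5-10618 (0.0729), PRMT5-10771 (0.123), CTRL-10370 (0.105), CTRL-10596 (0.104) or CTRL-10597 (0.0593), and in the least favorable block (0.0654). For Ptbp2 it was lost without the trend (0.092) and without library PRMT5-10617 (0.0702), PRMT5-10618 (0.0789), PRMT5-10771 (0.0925), CTRL-10650 (0.106), CTRL-10370 (0.1) or CTRL-10596 (0.101), and in the least favorable block (0.0645). The SR proteins, the activators that hnRNPs often oppose, had 1 of 11 genes higher and 0 lower by limma, with a median of -0.02, and at an unadjusted p below 0.05 limma gave 2 higher and 0 lower. That gene, Srsf7, which acts in splicing and mRNA export, rose by 0.31 (adjusted p = 0.0308), a call lost with no filter on low values (0.0505), without the trend (0.0705) and without library PRMT5-10618 (0.0609), PRMT5-10771 (0.0762), CTRL-10650 (0.0822) or CTRL-10596 (0.072), and in the least favorable block (0.0547).

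Markers of cell types were read in each library to set the identity of the cells beside these values. The 10 B cell markers gave 11 tested entries, since Ebf1 had more than 1. Of these entries, 7 had positive and 4 negative fold changes. At an adjusted p below 0.05, 1 was higher, Fcrla (0.50 on the log2 scale, adjusted p = 0.0219 from limma), which passed in 14 of 19 alternatives. The 2 that were lower were Cd79a, given below, and 1 entry of Ebf1 (adjusted p = 0.0338 from limma). Of the B cell markers, Ms4a1, which encodes CD20, was abundant in every library, at 35230.5, 53860.1, 41022 and 45823 normalized counts in Prmt5-null and 42649.8, 49419.6, 48931 and 45965 in control, with overlapping ranges. Cd79a, a signaling chain of the B cell receptor, had 8137, 8809, 6939 and 8571 in Prmt5-null and 14257, 14069, 13565 and 12214 in control, so that all Prmt5-null libraries lay below the control libraries (-0.74 on the log2 scale, adjusted p = 0.000327 from limma), while Cd79b, its partner chain, had 30533 ± 3325 and 28360.1 ± 1626 with overlapping ranges. Of 8 plasma cell markers, 7 were in the table and 2 of these fell, Xbp1, which drives the secretory program and was the most abundant (-0.45 on the log2 scale, adjusted p = 0.0305 from limma), and Prdm1, a repressor of the B cell program (-0.48, adjusted p = 0.0428). Both calls depended on the libraries, passing in 11 and 12 of 19 alternatives, with adjusted p-values of 0.0906 and 0.123 without library CTRL-10596. Of the 7 markers, 4 had positive fold changes, and Irf4, a regulator of the plasma cell fate, had 15374, 14190.1, 14055 and 14719 normalized counts in Prmt5-null and 13738, 11263, 12724 and 13465 in control, all Prmt5-null libraries being higher, but did not pass (adjusted p = 0.134). The sums of the 7 markers were 59379, 60883, 60259.8 and 59692 in Prmt5-null and 72626, 59877, 74947 and 65116 in control. Of 15 fibroblast markers that the feeder cells could bring, 14 were in the table and 12 were tested, all with positive fold changes, and 4 were called higher at 1.5-fold. Of these, Col3a1 passed in 19 of 19 alternatives, Col1a2 (0.72, adjusted p = 0.0213) in 15, Timp2, an inhibitor of matrix proteases (0.88, adjusted p = 0.019), in 14 and Sparc, a matrix glycoprotein (0.83, adjusted p = 0.0368), in 11. The calls of Col1a2, Timp2 and Sparc were lost without the trend and when single libraries were left out, and that of Sparc also in the least favorable block (0.0574). The largest of the changes was that of Col3a1, a collagen, with 1418, 592, 1209 and 911 normalized counts in Prmt5-null and 628, 399, 459 and 479 in control (1.02 on the log2 scale, adjusted p = 0.0136 from limma). The 14 markers summed to 14332, 8255, 11801 and 10129 in Prmt5-null and 9472, 5538, 6687 and 7909.7 in control, 11129 ± 2580.2 against 7402 ± 1686 (SD, n = 4 each), with Col1a2 the most abundant. Library PRMT5-10617 was highest and CTRL-10370 lowest, and the groups overlapped. T cell markers were near 0 apart from Lck, with Cd3e at 0 in every library, and summed to 481, 429.8, 360.3 and 320.4 in Prmt5-null and 676, 762, 789 and 752 in control. Lck, a kinase that B cells also express, fell by 0.94 on the log2 scale (adjusted p = 0.000852). Of 8 myeloid markers, 7 were in the table, S100a8 and S100a9 were at 0, Lyz2 was the most abundant, and the sums were 37.03, 67.4, 118 and 111 in Prmt5-null and 47.4, 122, 31.4 and 39.1 in control. RNA of the feeder cells can add to the values of genes that both cell types express, which was not measured here, and the part of the markers in the results was not tested.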

How the data were processed

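The values of 37 genes were compared between 4 Prmt5-null and 4 control libraries of iGBs. The authors used Trimmomatic 0.32 for trimming, STAR 2.3.0e for alignment to GRCm38 and featureCounts 1.4.4 to count reads that mapped uniquely to exons of Ensembl genes (versions from the submitters' processing notes). The strand setting of the counting is not given in the sources used here. Deposited gene values are a normalized signal, the counts divided by the DESeq2 1.14.1 size factor of each library. The inclusion levels that the authors deposited as fractions, and the read counts behind them, came from rMATS on untrimmed reads. The p-values and FDR values that the authors deposited for their comparison of the genotypes, and its differences in inclusion level, were not used.

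Genotypes were compared with limma 3.58.1 (lmFit, then eBayes with an intensity trend) in R 4.3.3, using log2 of the normalized count plus a pseudocount of 1. The 16250 genes whose mean reached 10 were tested, with Benjamini-Hochberg adjustment. Such fold changes are too small for genes with few reads. Within a tolerance of 0.001, 100% of the values in each library were whole multiples of the worth of 1 read, which gave the depths. On these recovered reads edgeR 4.0.16 and DESeq2 1.42.0, run as alternatives, called 1091 and 1277 genes at 1.5-fold, against 1053 by limma. The limma fit was first tested on simulated data, while edgeR and DESeq2 were not. Replicates were checked for libraries deposited more than once by a chi-square of their counts over its degrees of freedom, which ran from 21.1 to 113, and no pair agreed within sampling noise. The labels call the samples independent biological samples. They came from 2 experiments, but the labels do not say which library belongs to which, so the experiment was fitted as a block only as an alternative, in all 18 placements. The study's methods used DESeq2, which needs counts, so limma was the main test for the normalized values.

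Levels per kilobase used the merged exonic length of each gene in GENCODE vM21, which includes rarely used exons. Positions and places of events were read from the same annotation of GRCm38, and sequences from its transcripts. Events were handled in Python 3.11.15 with pandas 2.3.3 and NumPy 2.4.6. Other alternatives changed the pseudocount, the filter, the normalization, the trend, the thresholds, the libraries, the reads behind an event and the length. Genes named are Prmt5 and the members called or passing at an adjusted p below 0.05, with an event, or most or least abundant per length. Members that share a role with these are named too. From each further list, up to 5 of the largest changes that passed are given. A marker list also gives its most abundant gene and those at 0. Of the B cell markers, those that passed are given with Ms4a1 and Cd79b, in place of the most abundant. Irf4 is given for its lack of overlap. The sum of the B cell markers is not reported here. The members and lists were chosen with earlier results of these data known.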

Additional observations from a re-analysis of the deposited data

Results flagged for a closer look

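In groups of 4 values, the distance of the highest or lowest value from its nearest neighbor was set against the range of the group. Among the 37 genes, Prmt5, the marker sums and the 24 events this gave 134 groups, of which 9 held a value that stood apart at the 95% level, and chance picks about 1 in 20 groups. In the gene table, control library CTRL-10650 was the lowest for Hnrnpa0, at 8047 normalized counts against 10048.7 to 10189.6 in the others (distance over range 0.934). The same library was the lowest control for Hnrnph2, at 4061 against 4472 to 4537 (0.864), and without it the adjusted p of Hnrnph2 from limma was 0.0894. Prmt5-null library PRMT5-10618 was the highest for Hnrnpr, at 5278 against 4669 to 4767 (0.839), and without it Hnrnpr passed. Prmt5-null library PRMT5-10770 was the highest for Hnrnpf, at 18665 against 16134 to 16395 (0.897). The other 5 groups were control lists of inclusion levels, whose libraries are not named. The Pcbp2 exon had 0.915 against 0.936 to 0.939 (0.875), and the Hnrnpk exon 0.566 against 0.479 to 0.487 (0.908). The Hnrnph1 5′ UTR exon had 0.497 against 1 in the others (1.000) on 2 to 14 reads. The Celf1 intron had 0.919 against 0.803 to 0.821 (0.845), and its alternative 3′ splice site, which shares reads with the intron, 0.921 against 0.808 to 0.826 (0.841). No explanation of these values was tested.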

How the results depend on the processing

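The direction of Prmt5, of the median of the 37 genes and of each gene with a printed fold change was the same in all alternatives run. No paired analysis was possible because the titles of the libraries share no replicate numbers between the genotypes. When libraries were omitted singly, Prmt5 had a log2 fold change between -3.12 and -2.81, the number of members called at 1.5-fold was 1 throughout, the members higher at an adjusted p below 0.05 numbered 0 to 3, the members lower 1 to 2, and the median fold change of the members lay between -0.07 and -0.02. At a 2-fold threshold 0 members were called. The number of members higher was 0 with no filter on low values, 0 without the trend, 0 at an adjusted p below 0.01, 2 after quantile normalization and 2 by DESeq2, and from 0 to 3 over the 18 placements of the experiment as a block. It was 0 without library PRMT5-10617, PRMT5-10618, PRMT5-10771, CTRL-10650, CTRL-10370 or CTRL-10597, 1 (Hnrnph3) without CTRL-10596 and 3 (Hnrnpa3, Hnrnph2 and Hnrnph3) without PRMT5-10770. Members lower numbered 1 at an adjusted p below 0.01 and 1 without library PRMT5-10617, PRMT5-10771, CTRL-10596 or CTRL-10597, where Taf15 was the one left. A difference in inclusion level of at least 0.25 left 4 members with 4 events, those of Hnrnph1, Mbnl2, Rbm25 and Rbm5. For Hnrnph1 that event was the 5′ UTR exon, with 2 to 14 reads per library and overlapping ranges. The cause of these shifts in number was not tested, apart from the stricter thresholds, which by construction give fewer. With junction reads alone 16 members had 23 events, and with at least 20 reads in every library 15 members had 22. Hnrnpab ranked 2 and Mbnl2 36 of 37 by the longest protein-coding transcript, a length added after the values were known, and Mbnl2 ranked 35 with no division by length.

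Depth limits the events more than the genes. The thinnest, in Hnrnph1 and Hnrnpa1, rest on 2 to 15 reads per library, while all members had means above 1000 normalized counts. With 4 libraries per genotype, small changes of abundant genes lie near the threshold, and the calls of Hnrnpr and Hnrnph2 each depend on which libraries are in the fit. The lists of inclusion levels hold events chosen for a difference, so they cannot show how many members were spliced alike in both genotypes.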
